A study of Bos taurus with 20 samples.

Results

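The platelet-derived growth factor (PDGF) family was examined here as the 4 ligand genes PDGFA, PDGFB, PDGFC and PDGFD, the receptor genes PDGFRA and PDGFRB, and the receptor-like gene PDGFRL. Its 7 members were picked by gene symbol from the table of read counts, which lists 33063 named genes, and all 7 were found there. RNA was taken from 20 clones of bovine mesenchymal stem cells (MSCs), the fibroblast-like progenitors grown from enzymatically digested adipose tissue, each clone raised from 1 sorted cell in medium with serum and basic fibroblast growth factor, part of which had been conditioned on MSC cultures of the same animal. The tissue was visceral fat of young Holstein Friesian x Aberdeen Angus calves. The 10 adipogenic (A) clones formed adipocytes when tested and were the strongest of those available. The 10 non-adipogenic (N) clones did not. There were 4 animals: 17 and 20 contributed 1 A and 1 N clone apiece, 22 and 23 contributed 4 of each kind. All clones were undifferentiated when RNA was taken, so the A and N labels describe what sister cells of a clone did later, and each clone stands for 1 founder cell.

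PDGF ligands are secreted dimers that bring 2 receptor chains together at the cell surface and switch on their tyrosine kinases. PDGFA and PDGFB are cut to their active form inside the cell, whereas PDGFC and PDGFD are secreted with a CUB domain that proteases remove outside it. PDGFRA, also called CD140a, is widely used as a surface marker of adipose progenitors, and PDGFRB marks pericytes and other mural cells as well as many fibroblasts. PDGFRL encodes a secreted protein that resembles the outer part of the receptors and has no kinase.

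Counts on named genes ranged from 14908802 to 43111345 per N clone and from 14615493 to 29185355 per A clone, with medians of 16316703.5 and 16112862. Levels are given in CPM, counts scaled to library size and to edgeR's TMM factors, and compared only between clones for the same gene, since they are not corrected for transcript length. Changes are log2 fold changes of A against N clones from edgeR's quasi-likelihood test with the animal as a block. A gene was called at a Benjamini-Hochberg adjusted p under 0.05, and p-values measure the spread between clones. The 5 MSC markers NT5E, THY1, ENG, CD44 and ITGB1 were detected in all 20 clones, with a summed level of 2562 to 4984 CPM (N) and 3057 to 5389 CPM (A). ITGB1 and CD44 had the highest means of the 5 in both groups. Minima of single markers were much lower among N clones, at 0.508 CPM for NT5E, 0.395 for THY1 and 19.1 for ENG, all in clone 22-5. Among A clones the minima of these markers were 65.2, 18.0 and 242 CPM. Ranges of single markers without clone 22-5 were not computed. N clones 22-5 and 22-9 stood apart with summed mesothelial markers of 9198 and 6512 CPM, against 7.73 to 1095 CPM in the other clones, and results that rest on them are also given without them.

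Among the PDGF genes, 6 of 7 passed edgeR's filter on low counts and PDGFB did not. Of the 6 tested, 0 were called between A and N clones, whereas 20.6% of the 12900 genes tested were called, 10.3% higher and 10.3% lower in A clones. At an unadjusted p under 0.05 there was 1 of 6 members, PDGFA, against 36.1% of all genes. DESeq2's Wald test called 1 of 6, again PDGFA, against 27.4% of all genes, and limma-voom called 0, against 19.7%, with 1 of 6 at an unadjusted p under 0.05, against 35.3%. The median log2 change of the 6 members was 0.19, against -0.01 over all genes tested, and the median size of the change was 0.28 against 0.25. The members did vary between clones. With group and animal taken out, the remaining SD of log2 CPM was 0.61 to 1.23 for the 6 members, against a median of 0.34 over all genes tested.

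**Figure D1:**
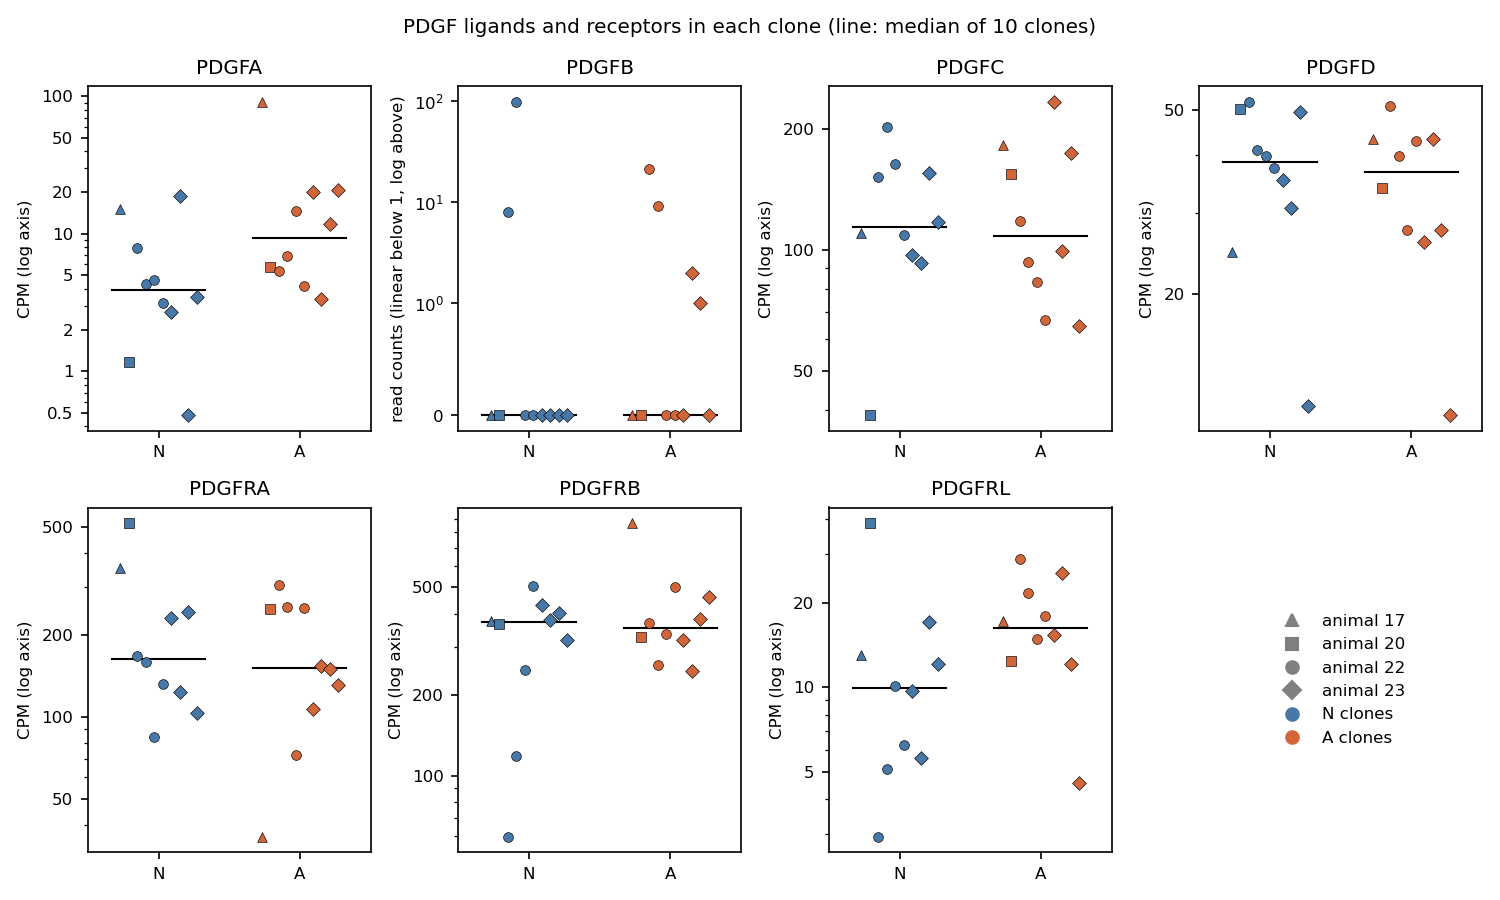
Level of each PDGF gene in each of 20 clones, in CPM on log axes, except PDGFB, which is in read counts. Marker shape gives the animal, colour the group (blue N, orange A) and the line the median of 10 clones; the groups overlap for all 7 genes, and 14 clones lie at 0 for PDGFB.

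PDGFA, the ligand that binds only the alpha receptor as a homodimer, had the largest log2 change of the 6 tested members. In N clones it ranged from 0.480 to 18.7 CPM (median 3.89), and in A clones from 3.37 to 91.3 CPM (median 9.37). The groups overlapped. A clones 17-57, 23-108 and 23-14, at 91.3, 20.8 and 20.0 CPM, exceeded all N clones, and 4 N clones were under all A clones. Mean PDGFA was 6.17 ± 6.09 CPM for N and 18.4 ± 26.4 CPM for A clones (SD, n = 10 each), so the SD of each group was about as large as its mean or larger. The log2 change was 1.19 with a 95% interval of 0.12 to 2.25, a 2.28-fold higher level in A clones that was not called (SE 0.504, p = 0.0308, adjusted p = 0.101, edgeR). The same sign was found in 4 of 4 animals, with A minus N differences of mean log2 CPM of 2.57, 2.20, 0.54 and 1.83 in animals 17, 20, 22 and 23. Its call depended on the tool and on 1 clone. DESeq2 gave a log2 change of 1.20 (adjusted p = 0.0416), and edgeR without N clone 23-22, the N clone with the highest PDGFA at 18.7 CPM, gave 1.74 (adjusted p = 0.0227). Without N clones 22-5 and 22-9 the log2 change was 1.38 (adjusted p = 0.103). Fewer cells with a transcript and less of it per cell cannot be told apart in these bulk libraries, here and below.

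PDGFB, the ligand that binds both receptors, was at 0 counts in 14 clones, 8 N and 6 A. Its counts were 98 in N clone 22-9 and 8 in N clone 22-5. Among A clones they were 21 in clone 22-11, 9 in 22-16, 2 in 23-62 and 1 in 23-68. The 4 clones above 3 counts all came from animal 22, and they were split evenly between the groups. A count of 0 in a library allows up to 3 counts, which is 0.0764 to 0.216 CPM over these 20 libraries, for counting error only, so a lower level of PDGFB was not detectable at this depth. In CPM, clone 22-9 reached 5.88 and no other clone exceeded 0.759. The summed counts were 106 in N and 33 in A clones, and 98 of the N counts came from 1 clone. No fold change is given, because PDGFB was left out of the test.

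The 4 clones with more than 3 PDGFB counts, all from animal 22, were also those with the highest mesothelial markers, a feature seen after the values were known. The 7 markers, KRT8, KRT18, KRT19, MSLN, UPK3B, WT1 and LRRN4, summed to 9198 CPM in 22-5, 6512 in 22-9, 1095 in 22-11, 939 in 22-16 and 386 in 23-62. These are the 5 clones with the highest sums, and they are the 5 clones with at least 2 PDGFB counts. The other 15 clones had sums of 7.73 to 276.5 CPM, and the 1 among them with a PDGFB count, 23-68, had a sum of 58.0 CPM. The level of PDGFB did not follow the size of the sum within these clones, since 22-5 had the higher sum and 8 counts and 22-9 the lower sum and 98. The part of mesothelial transcripts in the PDGFB counts was not tested.

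**Figure D2:**
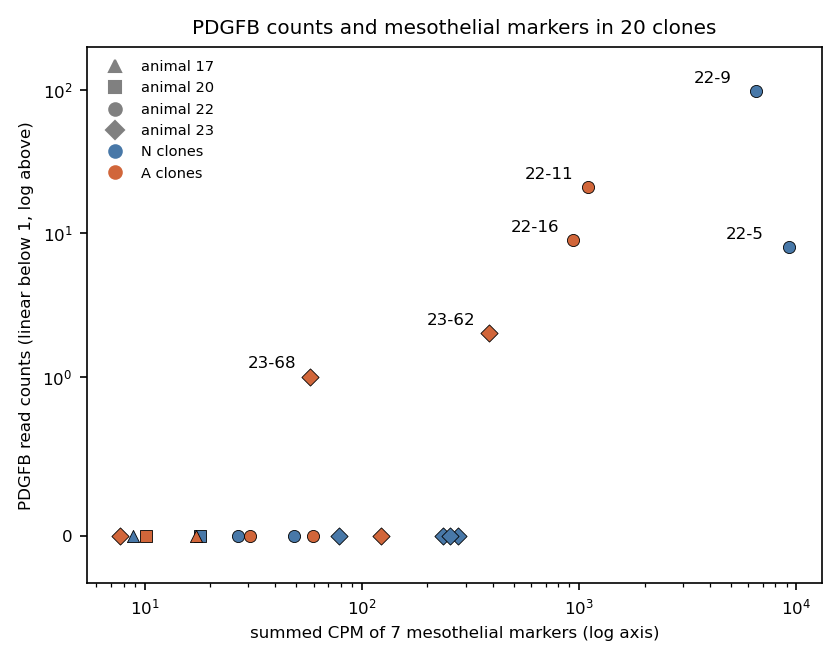
PDGFB read counts (vertical, linear below 1 and log above) against the summed CPM of 7 mesothelial markers (horizontal, log axis) in 20 clones, with shapes for animals and colours for groups. The 5 clones with the highest sums, from 386 to 9198 CPM, carry 2 to 98 PDGFB counts, and 14 of the other 15 clones have none. The 2 counts, in clone 23-62, are within the 3 counts that a count of 0 allows.

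PDGFC and PDGFD, the ligands with a CUB domain, were detected in all clones. PDGFC ranged from 38.9 to 202 CPM (median 113.7) among N clones and from 64.8 to 234 CPM (median 108.6) among A clones. The ranges overlapped widely, with 1 N clone, 20-15, below every A clone and 1 A clone, 23-14, above every N clone. The PDGFC log2 change was 0.06 with a 95% interval of -0.55 to 0.67 (SE 0.290, adjusted p = 0.902, edgeR). The sign was not shared between animals. A minus N differences of mean log2 CPM were 0.72, 1.99, -0.79 and 0.17 in animals 17, 20, 22 and 23, and the fitted change turned negative without any 1 of clones 17-23, 17-57, 20-15, 20-106 and 23-14, with values down to -0.14.

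PDGFD, which binds mainly the beta receptor, had the narrowest spread of the 6 tested members. It ranged from 11.4 to 52.2 CPM (median 38.6) among N clones and from 10.9 to 51.2 CPM (median 36.8) among A clones. Its ranges nearly coincided, and the lowest clone of each group, N clone 23-74 and A clone 23-108, came from animal 23. Between groups the PDGFD log2 change was -0.10 with a 95% interval of -0.63 to 0.42 (SE 0.248, adjusted p = 0.789, edgeR). It was 0.01 without N clone 23-23. Among animals it was higher in A clones in animal 17 only.

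**Figure D3:**
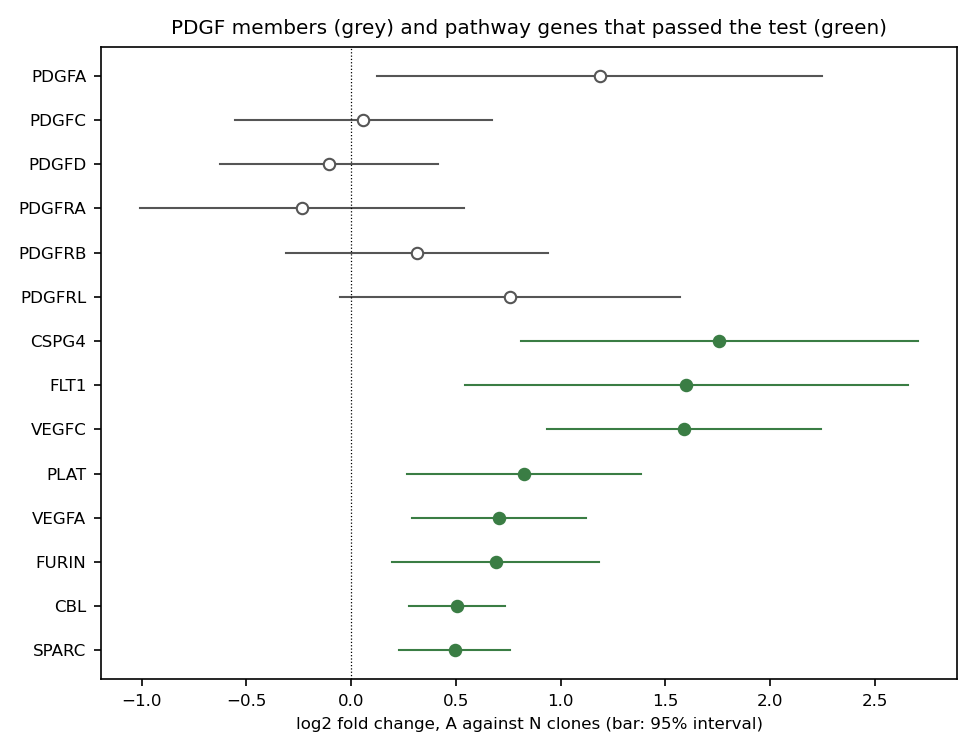
Log2 fold change of A against N clones (horizontal) with its 95% interval for the 6 PDGF genes tested (grey) and the 8 genes of the pathway lists that passed the test (green); filled points have an adjusted p under 0.05. The intervals of 5 members include 0, that of PDGFA runs from 0.12 to 2.25 with an adjusted p of 0.101, and the 8 pathway genes lie between 0.49 and 1.76.

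PDGFRA, the alpha receptor, ranged from 84.5 to 516 CPM (median 163) among N clones and from 36.2 to 305 CPM (median 151) among A clones. The highest N clone was from animal 20 and the lowest A clone from animal 17. N clones 20-15 and 17-23, at 516 and 352 CPM, lay above every A clone, and A clones 17-57 and 22-27, at 36.2 and 72.1 CPM, lay below every N clone. The log2 change was -0.24 with a 95% interval of -1.01 to 0.54 (SE 0.366, adjusted p = 0.674, edgeR). Between animals the difference ran from -3.28 in animal 17 and -1.04 in animal 20 to 0.56 in animal 22 and -0.29 in animal 23. Without either clone of animal 17 the fitted change was 0.03.

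PDGFRB, the beta receptor, ranged from 59.6 to 506 CPM (median 371) among N clones and from 245 to 865 CPM (median 352) among A clones. N clones 22-5 and 22-9, at 59.6 and 119 CPM, lay below the other 18 clones, which ranged from 245 to 865 CPM, and the highest was A clone 17-57. The PDGFRB log2 change was 0.32 with a 95% interval of -0.31 to 0.94 (SE 0.296, adjusted p = 0.462, edgeR). Without 22-5 and 22-9 it was 0.05 (adjusted p = 0.897). These were also the clones with the highest mesothelial markers, and the part of that in their low PDGFRB was not tested. Within animals the difference was 1.21, -0.17, 1.04 and -0.15 in animals 17, 20, 22 and 23.

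Set against each other, the receptor counts varied in proportion from clone to clone. The ratio of PDGFRB to PDGFRA counts, which can be compared between clones but does not give the relative number of molecules, had a median of 1.75 in N clones and 2.28 in A clones. It ran from 0.356 in 22-5 to 3.82 in 22-18 among N clones and from 1.02 in 22-16 to 23.9 in 17-57 among A clones. PDGFRB had more counts than PDGFRA in 7 of 10 N clones and in 10 of 10 A clones. On the log2 scale the ratio was 0.60 ± 1.14 in N and 1.39 ± 1.33 in A clones (SD, n = 10 each), a difference smaller than the SD of either group. Without 22-5 and 22-9 PDGFRB had more counts in 7 of 8 N clones, with a log2 ratio of 0.99 ± 0.85, and without 17-57 the log2 ratio of the other 9 A clones was 1.04 ± 0.76. A clone 17-57 had both the lowest PDGFRA and the highest PDGFRB of the 20 clones, and also the highest PDGFA.

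**Figure D4:**
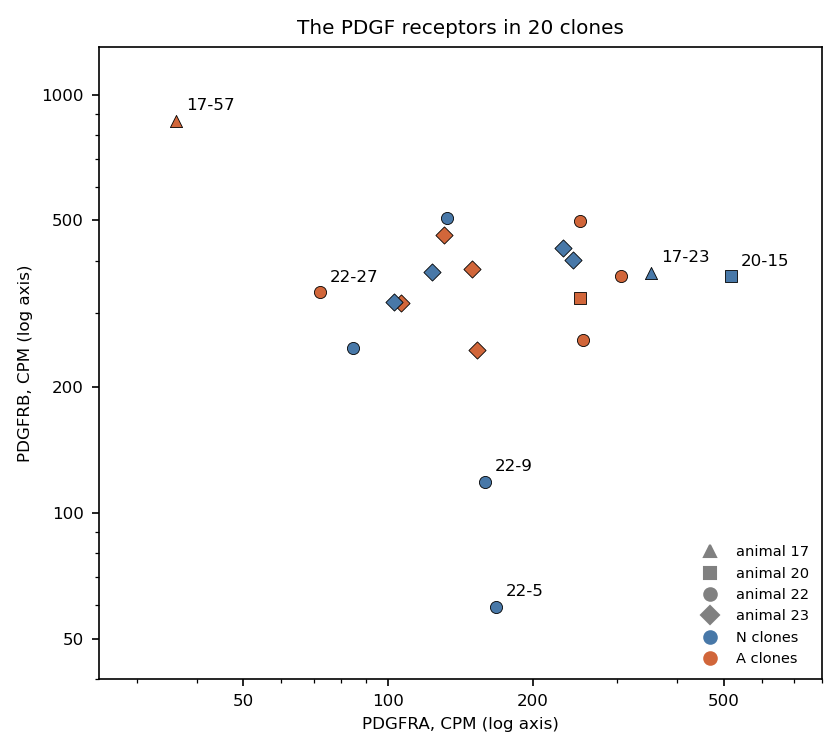
PDGFRB against PDGFRA in CPM (both log axes) in 20 clones, with shapes for animals and colours for groups. A clone 17-57 stands alone at low PDGFRA (36.2 CPM) and high PDGFRB (865 CPM), and N clones 22-5 and 22-9 lie below the rest in PDGFRB at 59.6 and 119 CPM.

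PDGFRL, the secreted receptor-like protein, ranged from 2.94 to 38.5 CPM (median 9.93) among N clones and from 4.58 to 28.7 CPM (median 16.3) among A clones. The group ranges overlapped, yet 9 of 10 A clones lay above the N median. Over all animals the PDGFRL log2 change was 0.76 with a 95% interval of -0.05 to 1.57, a 1.69-fold higher value in A clones that was not called (SE 0.384, p = 0.0649, adjusted p = 0.163, edgeR). In animal 22 the groups did not overlap for PDGFRL, while they did for the other tested members. The share of all genes without overlap in animal 22 was not computed. In the edgeR fit of animal 22 alone, 2 of 6 members were at an unadjusted p under 0.05, against 18.6% of all genes. The 4 N clones of that animal had 2.94, 5.10, 6.24 and 10.1 CPM, and its 4 A clones had 14.8, 18.0, 21.8 and 28.7 CPM. Without animal 22 the log2 change was 0.07 (adjusted p = 0.933, edgeR), and in animal 22 alone it was 1.77 (adjusted p = 0.0739). In animal 23 the groups overlapped, and in animal 20 the N clone was the higher. A minus N differences of mean log2 CPM were 0.40, -1.62, 1.85 and 0.24 in animals 17, 20, 22 and 23. Without 22-5 and 22-9, which had the lowest PDGFRL of the N clones, the log2 change was 0.45 (adjusted p = 0.434).

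An interaction term asked, in the 16 clones of animals 22 and 23, whether the change from N to A was the same in both. Of the 6 members 0 were called, where 0.031% of the 12915 genes tested were, and 1 member, PDGFC, was at an unadjusted p under 0.05, as were 9.06% of all genes. Its A minus N change was 1.10 higher on the log2 scale in animal 23 than in animal 22 (SE 0.473, p = 0.0355, adjusted p = 0.519, edgeR's quasi-likelihood test). DESeq2 also called 0 members, against 0.9% of all genes, with 2 of 6 at an unadjusted p under 0.05, against 10.4%. PDGFRL had a difference of -1.40 (p = 0.0559, adjusted p = 0.566, edgeR), the largest in size among the members in this fit. PDGFA had 0.51 (adjusted p = 0.929), and 2.02 (adjusted p = 0.619) without N clone 23-22. PDGFRA and PDGFRB had values of -1.08 (adjusted p = 0.583) and -0.77 (adjusted p = 0.770), and without 22-5 and 22-9 that of PDGFRB was -0.06.

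The level itself was also compared between animals 23 and 22 with the group in the model. Here edgeR called 0 of 6 members, against 0.108% of the 12915 genes tested, and DESeq2 called 0, against 3.3% of all genes. At an unadjusted p under 0.05 there were 0 members in both, against 12.3% of all genes in edgeR and 14.4% in DESeq2. PDGFD had the smallest p of the members, with a log2 change of -0.50 in animal 23 against animal 22 (p = 0.0891, adjusted p = 0.488, edgeR). The other members had log2 changes of -0.17 for PDGFRA, 0.33 for PDGFRB, 0.11 for PDGFC, 0.60 for PDGFA and 0.16 for PDGFRL.

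**Figure D5:**
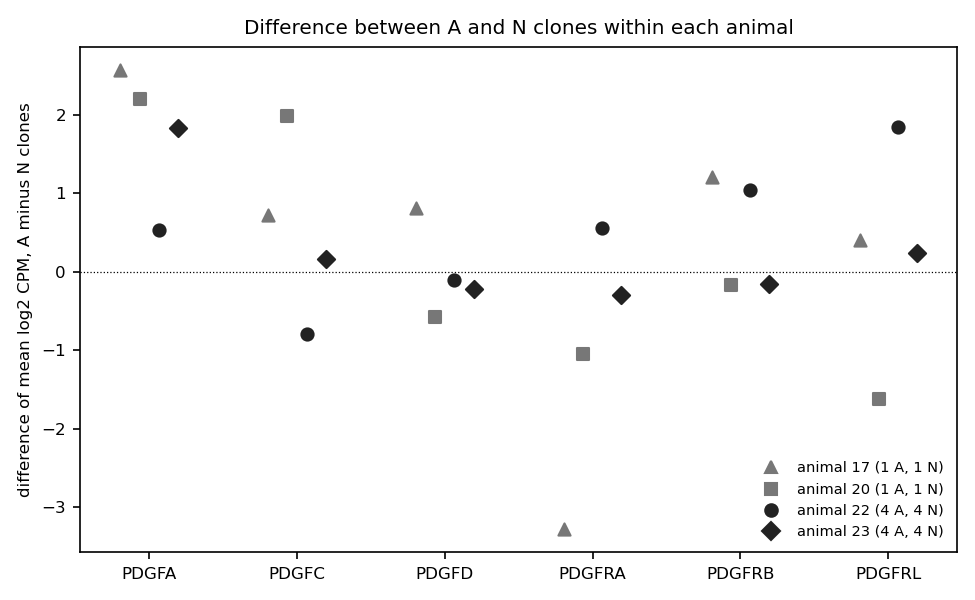
Difference of mean log2 CPM between A and N clones (vertical) within each of the 4 animals for the 6 PDGF genes tested; animals 17 and 20 (grey) have 1 clone of each kind, animals 22 and 23 (black) have 4. PDGFA lies above 0 in all 4 animals, and each of the other 5 genes has animals on both sides of 0.

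Levels of ligands and receptors were compared across the 20 clones for 5 pairs of a ligand and a receptor or of the receptors, using log2 CPM with 100000 permutations. The permutations treat the clones as exchangeable, although clones share animals and belong to 2 groups, so these p-values carry that limit. PDGFA and PDGFRA had a Pearson r of -0.61 (permutation p = 0.00495, adjusted over 5 pairs p = 0.0248) and a Spearman rho of -0.40 (permutation p = 0.0787, adjusted p = 0.386). Without 22-5 and 22-9 that r was -0.61 (adjusted permutation p = 0.0377). The linear relation was weaker without the clones at the ends of the PDGFA range, which also narrows that range. Without A clone 17-57 and N clone 23-23, r was -0.41 (n = 18, permutation p = 0.0903). It was -0.34 within animal 22, -0.72 within animal 23 (8 clones each), -0.87 within A clones and -0.30 within N clones. PDGFB and PDGFRB had r = -0.64 (permutation p = 0.0114, adjusted p = 0.0285) and rho = -0.30 (permutation p = 0.196, adjusted p = 0.386), with 14 clones tied at 0 counts of PDGFB. Without 22-9 and 22-11, the clones with the highest PDGFB, r was -0.69 (n = 18, permutation p = 0.00614), and without 22-5 and 22-9, the clones with the lowest PDGFRB, it was -0.32 (adjusted permutation p = 0.302). PDGFC and PDGFRA had r = -0.44 (permutation p = 0.0564, adjusted p = 0.0940), PDGFD and PDGFRB r = -0.21 (permutation p = 0.344, adjusted p = 0.430), and PDGFRA and PDGFRB r = -0.15 (permutation p = 0.535, adjusted p = 0.535).

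The genes whose log2 CPM followed each member most closely over the 20 clones were found by Pearson r, as a description. The clones share animals, the genes of a clone are read from the same library, and the genes with the highest r were picked from all those tested. For PDGFA they were PRKAR1B, SLC48A1 and PTP4A3, with r of 0.805, 0.799 and 0.787, of which SLC48A1 and PTP4A3 were called higher in A clones, with log2 changes of 0.81 and 1.12 (adjusted p = 0.00991 and 0.00547, edgeR). PDGFRA was followed by ZBTB25 (0.786), NCBP3 (0.779) and MAP3K2 (0.769), none of which was called between A and N clones. PDGFRB was followed by TBCB (0.890), NOL3 (0.872) and MARCH3 (0.866), but their Spearman rho was lower, at 0.648, 0.540 and 0.641. PDGFRL was followed by IFNAR2 (0.851), NREP (0.824) and AUTS2 (0.816), with rho of 0.824, 0.792 and 0.818. NREP and AUTS2 were called higher in A clones, with log2 changes of 2.43 and 0.66 (adjusted p = 0.0319 and 0.0237, edgeR). For PDGFC the highest r was 0.797, with LOC107131356, and for PDGFD 0.759, with MPZL1.

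Around the ligands and receptors, 56 genes in 6 lists were followed: proteases that process the ligands, proteins that bind them or act as co-receptors, the related VEGF ligands, related receptors, adaptors and effectors inside the cell, and genes that restrain receptor signalling. Of the 48 tested, 8 were called, all higher in A clones, which is 16.7% against the 20.6% of all genes. Their median log2 change was 0.12, against -0.01 over all genes tested. None of the 22 adaptors and effectors was called in the fit reported, with 4 at an unadjusted p under 0.05, while DESeq2 called 1 and limma-voom 0, and 10 of the 36 alternative fits called 1 or 2. The calls were 2 of 6 proteases, 2 of 5 binding proteins and co-receptors, 2 of 3 VEGF ligands, 1 of 1 related receptor and 1 of 11 restraining genes.

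CSPG4, also known as NG2, a proteoglycan of pericytes and progenitors that binds PDGFA, had the largest log2 change of the 8 called genes. It ranged from 2.71 to 210 CPM in N clones and from 129 to 880 CPM in A clones, and 8 of 10 A clones exceeded all N clones. The log2 change was 1.76, 3.38-fold (SE 0.450, adjusted p = 0.0134, edgeR), and all 4 animals had the higher mean in A clones. Without 22-5 and 22-9 it was 1.55 (adjusted p = 0.00455). SPARC, a matrix protein that binds PDGFB, rose by 0.49 on the log2 scale (adjusted p = 0.0128, edgeR), whereas the co-receptor NRP1 and the endocytic receptor LRP1 had log2 changes of 0.16 and 0.13 (adjusted p = 0.862 and 0.553). A2M, a plasma protease inhibitor that also binds PDGF, had a log2 change of 2.43 (adjusted p = 0.105).

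Among the proteases, PLAT, the tissue plasminogen activator that cleaves PDGFC, rose by 0.82 on the log2 scale (adjusted p = 0.0362, edgeR), and FURIN, a convertase that cuts PDGFA and PDGFB, rose by 0.69 (adjusted p = 0.0467). These calls were close to the threshold, and with 1 clone left out at a time they held in 8 and 7 of 20 fits. Both were lost without 22-5 and 22-9, where PLAT had 0.81 (adjusted p = 0.0767) and FURIN 0.73 (adjusted p = 0.0814, edgeR). PLAU, which cleaves PDGFD, had a log2 change of -0.55 (adjusted p = 0.392). Of the VEGF ligands, which share the fold of the PDGFs, VEGFC rose by 1.59 on the log2 scale (adjusted p = 0.00327) and VEGFA by 0.71 (adjusted p = 0.0202), and VEGFB had -0.57 (adjusted p = 0.133). Without 22-5 and 22-9 the log2 change of VEGFA was 0.56 (adjusted p = 0.0536). The VEGF receptor FLT1 rose by 1.60 on the log2 scale (adjusted p = 0.0331). Its call was lost without 22-5 and 22-9 (1.41, adjusted p = 0.0722) and without any 1 of N clones 22-9, 23-10, 23-23 and 23-74 and A clones 22-11 and 23-14. CBL, the ubiquitin ligase that sends activated receptors for degradation, rose by 0.50 on the log2 scale (adjusted p = 0.00551), as 1 of the 11 restraining genes. The calls of CSPG4, SPARC, VEGFC, VEGFA and CBL held in 20 of 20 fits that left out 1 clone. Leaving out 1 clone of animal 17 or 20 also takes out that animal's comparison of A with N. All these calls were lost without animal 23 (adjusted p = 0.0931 for SPARC to 0.203 for VEGFA, edgeR), where 32 genes were called over the whole table. They were also lost in animal 22 alone and with counts summed per animal and condition, where 0 genes were called with summed counts. Without animal 22 SPARC and VEGFA were not called (adjusted p = 0.118 and 0.0842, edgeR), while CSPG4, VEGFC and CBL were. In animal 23 alone SPARC, VEGFA and CSPG4 were not called (adjusted p = 0.434, 0.114 and 0.0672, edgeR), while VEGFC and CBL were.

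Markers of other cell types that express PDGF genes were counted beside these results. Of 7 tested pericyte and smooth muscle markers 2 were called, NOTCH3 and MYH11, with log2 changes of 2.99 and 3.04 (adjusted p = 0.00521 and 0.0484, edgeR), and the list summed to 134 to 6138 CPM (N) and 772 to 8697 CPM (A). Of 4 tested endothelial markers 1 was called, ERG, with a log2 change of 2.51 (adjusted p = 0.0323), and the list summed to 1.36 to 46.7 CPM (N) and 9.46 to 104 CPM (A). Of 6 macrophage markers only CD68 passed the filter, and it was called with a log2 change of 1.06 (adjusted p = 0.0157). The leukocyte marker PTPRC reached at most 7 counts in any clone and the endothelial cadherin CDH5 at most 5, and the pericyte markers RGS5 and KCNJ8 did not pass the filter. Other members of the endothelial list reached 491 (VWF), 450 (PECAM1), 60 (TEK) and 7 (TIE1) counts. In the macrophage list the maxima were 137 (CD68), 135 (CD14), 52 (CD163), 21 (AIF1) and 2 (ITGAM) counts. The macrophage list summed to 0.767 to 10.7 CPM (N) and 2.34 to 11.6 CPM (A). Of 3 tested adipocyte markers PPARG and PLIN1 were called, with log2 changes of 3.77 and 0.53 (adjusted p = 0.00486 and 0.0456), and of 6 tested mesothelial markers MSLN was called, with a log2 change of -1.97 (adjusted p = 0.0393). The mesothelial list was split in the sign of the fitted change. WT1, KRT18 and UPK3B had log2 changes of -1.79, -2.38 and -0.36, and KRT19 and KRT8 had 1.16 and 0.72 (SE 2.96 and 3.26), none of them called. The mean levels of KRT19 and KRT8 went the other way. They were 407 ± 864 and 751 ± 1654 CPM in N clones, against 53.4 ± 85.7 and 121 ± 216 CPM in A clones (SD). Without 22-5 and 22-9 the calls of MSLN (-0.91, adjusted p = 0.393), ERG (2.05, adjusted p = 0.0827), MYH11 (2.97, adjusted p = 0.0830) and PLIN1 (0.39, adjusted p = 0.145) were lost, and those of NOTCH3, CD68 and PPARG held. With 1 clone left out at a time, MSLN held in 8, MYH11 in 5, PLIN1 in 6 and ERG in 16 of 20 fits. The part of these markers in the values of PDGFA, PDGFRL and CSPG4 was not tested.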

How the data were processed

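Bulk RNA of 20 clones was sequenced from directional libraries, 1 per clone. Per the labels, the authors demultiplexed with bcl2fastq 2.20, trimmed with Trimmomatic 0.36, mapped with STAR 2.5.2b to ARS-UCD1.2 and counted unique exonic reads with featureCounts (Subread 1.5.2). They deposited raw counts per gene. The strand setting is not given in the sources used here, so counts of overlapping genes are uncertain; the genes annotated across PDGFB, PDGFD and PDGFRB had at most 2 counts. No coordinates or sequences are given, since the annotation used here (ARS-UCD2.0, RefSeq, 7 of 7 members matched) is of another build.

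In R 4.3.3, edgeR 4.0.16 was used (TMM, default filter, robust quasi-likelihood F test, Benjamini-Hochberg adjustment over all genes tested), with animal as a block; 1 row without a name, 0.113 to 0.333% of the counts, was left out. Intervals are at 95%. DESeq2 1.42.0 and limma-voom 3.58.1 were alternatives, with other normalizations, filters, single animals, summed counts and left-out clones or animals. Clones are paired by animal. Within animals 17, 20, 22 and 23, the correlation between A and N clones of their departures from the mean of each group was 0.253, 0.193, 0.241 and 0.440. No 2 clones of a group agreed within counting noise (90 pairs). log2 CPM used a prior count of 2. Named beside the members are up to 3 called genes per list and direction, those at an adjusted p under 0.05 in the pathway lists, and the 3 genes most like each member; list genes not called were named after their values were seen. The members and lists were chosen with earlier results of these data known, and fitting without clones 22-5 and 22-9, and the receptor ratio without them or 17-57, were added after seeing the data. The test code was run on counts simulated with the same dispersion for every gene, which does not measure its error rates in these clones.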

Additional observations from a re-analysis of the deposited data

Results flagged for a closer look

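Clones are listed here that lay far from the others of their group, with a gap measure above 0.466. The measure is the gap of the highest or lowest clone to the nearest other clone, divided by the range of the 10 clones. For genes it was taken on log2 CPM with a prior count of 2, whereas the levels printed beside it are in CPM. Of 48 groups of values examined, 9 had such a clone, where chance gives about 1 in 20, or 2.4, for normally distributed values. PDGFB does not meet that condition, with 8 of the 10 N clones at 0 counts.

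PDGFB in N clones had a gap of 0.587, with 5.88 CPM in 22-9 against at most 0.452 in the others. PDGFC in N clones had 0.527, with 38.9 CPM in 20-15 against 92.8 to 202 CPM in the others. PDGFD had 1 low clone in each group, with a gap of 0.504 for N clone 23-74 (11.4 CPM against 24.6 to 52.2) and of 0.558 for A clone 23-108 (10.9 CPM against 25.9 to 51.2). PDGFRL was also lowest in 23-108 among A clones, with a gap of 0.527 (4.58 CPM against 12.1 to 28.7). The log2 ratio of PDGFRB to PDGFRA was highest in A clone 17-57, with a gap of 0.518. CSPG4 in N clones had 0.583, with 2.71 CPM in 22-5 against 34.7 to 210 CPM in the others, and FLT1 in N clones had 0.519, with 0.737 CPM in 20-15 against 11.1 to 124 CPM. The log2 total count of N clone 22-18 was the highest, with a gap of 0.574.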

How the results depend on the processing

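Over the 36 alternatives run for A against N, PDGFRL kept its sign and was never called, and it ran from 0.0695 without animal 22 to 1.77 in animal 22 alone. PDGFA, which did not pass a minimum of 10 counts in every clone, kept its sign in the other 35 and was called by DESeq2 (1.20) and, among the fits without 1 clone (1.03 to 1.74), without N clone 23-22. PDGFC turned negative in animal 22 alone (-0.80) and without animal 17 (-0.0194), animal 20 (-0.14) or animal 23 (-0.13), and ranged from -0.14 to 0.17 without 1 clone. PDGFRA turned positive in animal 22 alone (0.69) and without animal 17 (0.0287), was -0.90 without animal 22, and ranged from -0.37 to 0.0283 without 1 clone. PDGFRB was -0.11 in animal 23 alone, and PDGFD ranged from -0.21 to 0.0123 without 1 clone. The fit without the animal block changed no call among the 6 members (PDGFA 1.58, adjusted p = 0.102, edgeR). The number of genes called over the whole table was 153 in animal 22 alone, 800 in animal 23 alone, 1471 without animal 22 and 32 without animal 23. With counts summed per animal and condition edgeR called 0 genes, with 2243 at an unadjusted p under 0.05; the other tools were not run on these sums. The number of pathway list genes called, 8 in the fit reported, was 0 with summed counts, 0 in animal 22 alone, 4 in animal 23 alone, 0 without animal 23 and 5 without clones 22-5 and 22-9. It ranged from 5 to 12 without 1 clone, with 5 without any 1 of N clones 22-9, 23-10, 23-23 and 23-74 and A clone 23-14.

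For the interaction of condition and animal, without 1 clone PDGFD ranged from -0.48 to 0.14 and PDGFA from 0.12 to 2.02, the highest without N clone 23-22. For animal 23 against animal 22, leaving out 1 clone gave -0.0208 to 0.81 for PDGFA, -0.0838 to 0.22 for PDGFC and -0.0164 to 0.36 for PDGFRL, and leaving out 22-5 and 22-9 gave -0.0231 for PDGFRB and -0.16 for PDGFRL. Without those clones r was -0.32 for PDGFB and PDGFRB and 0.0421 for PDGFD and PDGFRB. The causes were not tested. Depth limits PDGFB most, with at most 98 counts in a clone.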
